A study of Mus musculus with 4 samples.

Results

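The Hox cluster genes encode homeodomain transcription factors, and they were taken here as every protein-coding entry whose mouse symbol is Hox followed by a, b, c or d and a number. This gave 39 of the 47633 genes in the deposited table: 11 Hoxa, 10 Hoxb, 9 Hoxc and 9 Hoxd genes. Levels were measured by RNA sequencing of total RNA in 4 libraries, all from mouse embryonic stem (ES) cells of strain 129S2/SvPas or cells derived from them. The library of cells 2 days without LIF, the library labelled embryoid body (EB library, 5 days without LIF) and the 2 ES libraries were compared. Leukaemia inhibitory factor (LIF) is a cytokine that holds mouse ES cells undifferentiated, and an embryoid body is an aggregate of differentiating ES cells. The ES cultures were kept with LIF on mitomycin C-treated embryonic fibroblasts (MEFs) of C57/BL6 mice, so every library could hold fibroblast RNA. The labels do not say whether feeder cells were removed, nor whether separate cultures gave the ES libraries. The p-values then measure only the spread between these libraries, which may be technical. Each derived group was 1 library and was assumed to vary as the ES pair did.

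Hox genes lie in 4 clusters in mammals, and genes at the same place in different clusters form a paralogue group. In the embryo they are switched on in the order in which they lie, with low-numbered genes first and towards the head and high-numbered genes later and towards the tail. In ES cells the clusters are a textbook case of silencing by Polycomb complexes, and retinoic acid, WNT and the CDX factors are known to activate them during differentiation. Fibroblasts are known to keep a Hox pattern that reflects where in the body they came from.

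On the build GRCm38 (mm10), the Hoxa cluster lies on the reverse strand of chromosome 6. The Hoxb cluster spanned chr11:96194316-96368256 (173.9 kb) and the Hoxc cluster chr15:102921103-103036852 (115.8 kb). The Hoxd cluster spanned chr2:74668310-74765142 (96.8 kb), and the Hoxb, Hoxc and Hoxd clusters lie on the forward strand. In each cluster the group 13 gene marked the 5' end and the lowest-numbered gene the 3' end.

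Promoter windows of RefSeq (GRCm38.p6, 250 bases before to 50 after a start) were matched by symbol for 22 of the 39 genes, in 24 windows. The windows below belong to the members whose levels the results turn on and that the table holds: Hoxd8, the member called after 2 days without LIF, Hoxa10 and Hoxa13, the members most above ES cells in the EB library, and Hoxd13, the 5' end gene of its cluster, which was below ES cells there. Capitals mark matches on either strand to any of 5 short motifs. They are TATAAA, the core of the TATA box, then TTTATNG, a site bound by CDX factors, and TGATNNAT, bound by pairs of PBX and HOX proteins. The other 2 are GGGCGG, the GC box bound by SP1, and the element CCAAT, bound by NF-Y. Each sequence runs 5' to 3' on the gene's strand.
Hoxd8 (chr2:74704365-74704664, forward strand): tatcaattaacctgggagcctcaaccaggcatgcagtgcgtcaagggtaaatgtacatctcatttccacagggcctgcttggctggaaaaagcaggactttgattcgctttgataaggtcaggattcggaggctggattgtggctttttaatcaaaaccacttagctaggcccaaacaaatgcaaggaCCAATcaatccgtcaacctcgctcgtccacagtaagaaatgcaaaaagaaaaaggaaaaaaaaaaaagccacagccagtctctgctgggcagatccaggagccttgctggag
Hoxa10, outer start (chr6:52240805-52241104, reverse strand): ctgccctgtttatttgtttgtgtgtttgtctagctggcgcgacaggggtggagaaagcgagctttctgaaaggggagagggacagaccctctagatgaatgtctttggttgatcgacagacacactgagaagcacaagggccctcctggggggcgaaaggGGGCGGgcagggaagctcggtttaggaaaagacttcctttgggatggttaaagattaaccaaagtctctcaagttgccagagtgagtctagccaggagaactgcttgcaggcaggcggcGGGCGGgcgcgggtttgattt
Hoxa10, inner start (chr6:52234890-52235189, reverse strand): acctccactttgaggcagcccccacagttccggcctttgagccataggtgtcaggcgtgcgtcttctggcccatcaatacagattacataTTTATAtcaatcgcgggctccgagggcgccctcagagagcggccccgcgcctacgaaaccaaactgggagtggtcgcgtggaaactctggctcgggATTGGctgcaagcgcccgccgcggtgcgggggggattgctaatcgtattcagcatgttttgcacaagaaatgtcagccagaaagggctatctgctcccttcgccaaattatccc
Hoxa13 (chr6:52260831-52261130, reverse strand): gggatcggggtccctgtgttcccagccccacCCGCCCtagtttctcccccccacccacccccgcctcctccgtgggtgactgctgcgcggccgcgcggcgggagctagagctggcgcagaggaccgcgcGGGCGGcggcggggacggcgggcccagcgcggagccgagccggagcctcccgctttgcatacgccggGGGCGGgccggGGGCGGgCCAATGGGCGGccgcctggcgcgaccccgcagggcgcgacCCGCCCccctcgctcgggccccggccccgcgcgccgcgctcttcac
Hoxd13 (chr2:74667975-74668274, forward strand): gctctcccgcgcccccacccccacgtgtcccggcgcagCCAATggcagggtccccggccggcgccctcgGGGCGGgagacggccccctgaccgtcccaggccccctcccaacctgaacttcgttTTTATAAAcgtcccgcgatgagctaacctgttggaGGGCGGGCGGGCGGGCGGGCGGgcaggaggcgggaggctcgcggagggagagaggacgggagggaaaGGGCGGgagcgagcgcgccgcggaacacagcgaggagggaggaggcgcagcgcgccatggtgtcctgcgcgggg

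The windows differed in base composition. The Hoxd8 window had 6 CpG and 46.7% G+C, with a CCAAT match that began 62 bases before the start and no match to the other motifs. The Hoxa13 window had 45 CpG and 81% G+C, the most CpG of the 24 Hox windows, with 6 GC boxes and 1 CCAAT match. The Hoxd13 window had 37 CpG and 74.3% G+C, with 7 GC boxes, of which 5 overlap in 1 run, and TATAAA on both strands in overlapping matches. The outer and inner Hoxa10 windows had 12 and 21 CpG. The median over the Hox windows was 14.5 CpG, against 7 over all 32851 windows.

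Motif shares in the Hox windows were read beside those of all windows. CCAAT was found in 15 of 24 Hox windows (62.5%), against 37.4% of all windows. GGGCGG was found in 41.7% against 35.7%, TATAAA in 16.7% against 13.6%, and TGATNNAT in 16.7% against 8.8%. TTTATNG was found in 2 Hox windows (8.3%), those of Hoxb8 and Hoxd4, against 10.9% of all windows. In Hoxb8, TATAAA and TTTATNG matches overlapped on opposite strands, and in Hoxd4 a TTTATNG match overlapped a CCAAT match. A match describes letters in a window and no binding was measured, and a window without a match says only that these letters are not in it.

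Hox genes were low in all 4 libraries. Levels are FPKM, fragments per kilobase of gene and per M fragments, as deposited by the authors. At 1 FPKM or more were 7 of 39 Hox genes (17.9%) 2 days without LIF, and 3 of 39 (7.7%) in the EB library, against 3 in each ES library. Among 21618 protein-coding genes the share at 1 FPKM or more was 54.8% 2 days without LIF and 53.2% in the EB library, against 52.4% and 52.5% in ES 1 and ES 2. The median Hox gene was at 0.334 FPKM 2 days without LIF and 0.224 FPKM in the EB library, against 0.258 and 0.217 FPKM in ES cells, where the median protein-coding gene was at 1.42 FPKM in both libraries.

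Depth was estimated from the values at 18.1 M fragments 2 days without LIF and 26.4 M in the EB library, against 31.5 and 26.4 M in ES 1 and ES 2. A floor of 3 fragments then corresponds to 0.166 FPKM 2 days without LIF and 0.113 FPKM in the EB library, against 0.095 and 0.113 FPKM in ES cells, for a gene of 1 kb. Intervals and floors cover counting error only. Above the floor for their length were 32 Hox genes 2 days without LIF and 34 in the EB library, against 35 and 33 in ES cells. Of the 39, 29 were above it in every library, and Hoxa2 and Hoxb1, anterior members of hindbrain patterning, were under it in every library. Hoxb1 was listed at 0 FPKM throughout.

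The 10 most abundant genes of the table held 44.7% of the FPKM sum 2 days without LIF and 17.4% in the EB library, against 15.5% and 9.8% in ES cells. The ES pair differed by more than counting noise (median squared deviation 1.56 times that of Poisson noise over 607 genes), so both were kept as samples. ES markers were high in all libraries: Pou5f1 (Oct4), a core pluripotency factor, was at 455 FPKM 2 days without LIF and 461 FPKM in the EB library, against 489 and 472 FPKM in ES cells. The 10 ES markers summed to 2124 FPKM 2 days without LIF and 2652 FPKM in the EB library, against 2004 and 1977 FPKM in ES cells. None was called lower, where few genes of any kind were (0.357% 2 days without LIF and 0% in the EB library). Klf2, a factor of the naive ES state, was at 14.2 FPKM 2 days without LIF and 40.5 FPKM in the EB library, against 39.7 and 36.2 FPKM in ES cells, a change of -1.35 2 days without LIF that was not called (limma adjusted p = 0.0566). T (brachyury), the mark of nascent mesoderm, was at 0.558 FPKM 2 days without LIF and 0.127 FPKM in the EB library, against 1.00 and 1.14 FPKM in ES cells. Some other lineage markers lay above both ES libraries in the EB library and some below both, without a call. Tubb3, a neuronal tubulin, was at 17.1 FPKM there, against 10.6 and 9.79 FPKM in ES cells, and Sox7, of primitive endoderm, at 1.08 FPKM, against 0.568 and 0.5 FPKM. Kdr, a receptor of vascular mesoderm, was at 1.95 FPKM there, against 1.65 and 1.43 FPKM. Nes, of neural progenitors, lay below both ES libraries there, at 2.11 FPKM against 7.11 and 6.92 FPKM. Median changes in the EB library were -0.40 over 3 tested neural, -0.17 over 4 mesoderm and 0.09 over 2 endoderm markers. ES markers thus stayed high in the library labelled embryoid body, the markers do not settle whether its cells were differentiated, and it is named by its label throughout.

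**Figure D1:**
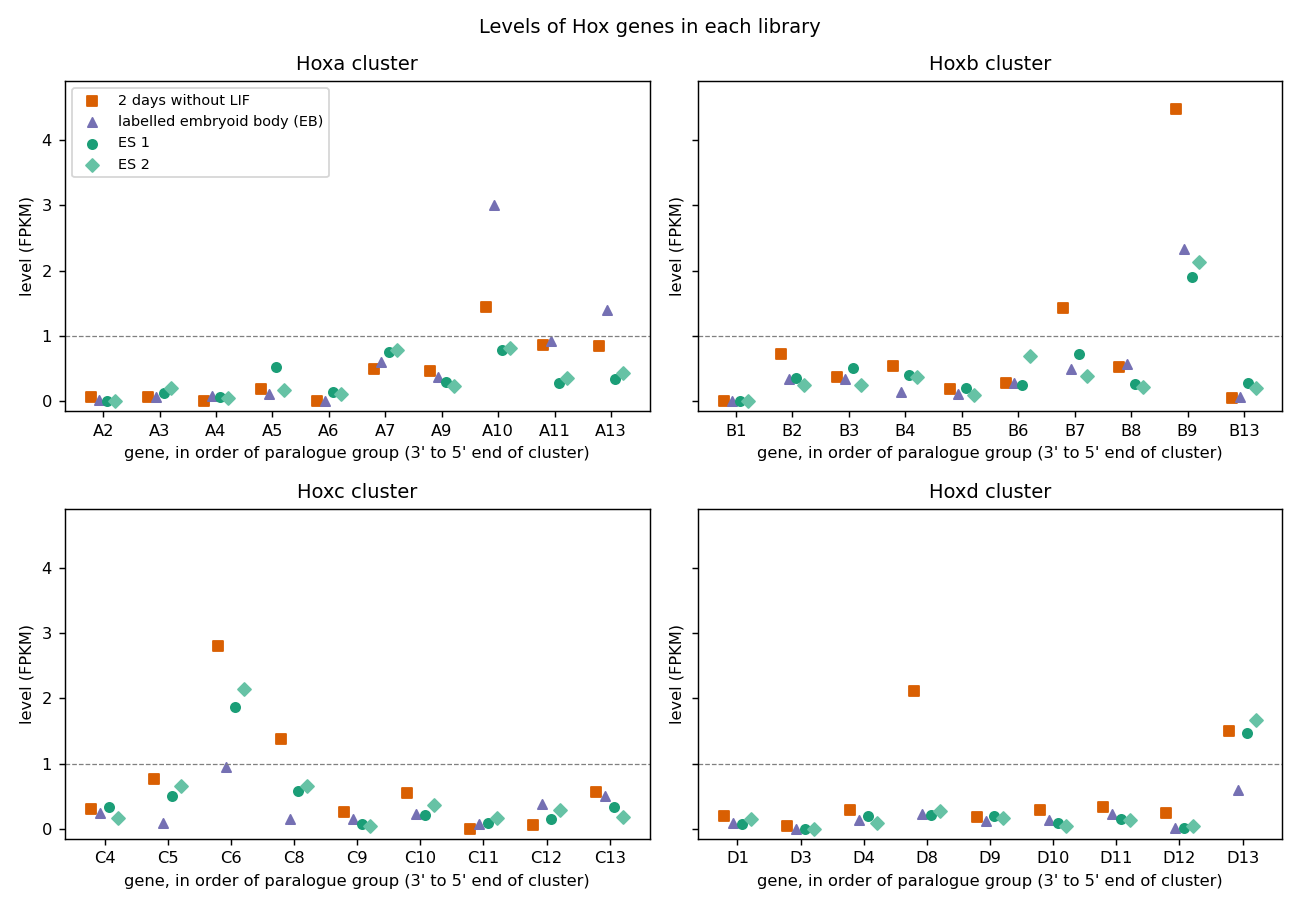
Level in FPKM of 38 of the 39 Hox genes in each library, 1 panel per cluster, with genes in order of paralogue group and the dashed line at 1 FPKM. Most points lie below the line; Hoxb9 reached 4.47 FPKM 2 days without LIF and Hoxa10 3.0 FPKM in the EB library.

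Summed over all 39 genes, Hox levels were 25.4 FPKM 2 days without LIF and 16.0 FPKM in the EB library, against 15.5 and 15.7 FPKM in ES cells. The sum was higher 2 days without LIF than in any other library, while the other 3 libraries lay close together. FPKM over all genes of the table also summed to more in that library, at 865343 2 days without LIF and 594026 in the EB library, against 582093 and 528718 in ES cells. Per M of that total, Hox genes held 29.4 FPKM 2 days without LIF and 26.9 in the EB library, against 26.6 and 29.8 in ES cells. Without the 10 most abundant genes of each library, the total was 478319 FPKM 2 days without LIF and 490744 in the EB library, against 492044 and 476906 in ES cells. Per M of that smaller total, Hox genes held 53.2 FPKM 2 days without LIF and 32.6 in the EB library, against 31.4 and 33.0 in ES cells. The Hox share 2 days without LIF thus lay above both ES libraries only when the most abundant genes were left out. Median-of-ratios factors, which follow the typical gene, were 1.034 2 days without LIF and 0.982 in the EB library, against 0.992 and 1.003 in ES cells. The clusters did not move alike. Hoxb summed to 8.56 FPKM 2 days without LIF and 4.67 FPKM in the EB library, against 4.88 and 4.62 FPKM in ES cells. Hoxc summed to 6.69 FPKM 2 days without LIF and 2.78 FPKM in the EB library, against 4.15 and 4.71 FPKM in ES cells. Hoxd summed to 5.21 FPKM 2 days without LIF and 1.55 FPKM in the EB library, against 2.40 and 2.57 FPKM in ES cells. For Hoxc and Hoxd, the ES libraries thus lay between the derived libraries. Hoxa summed to 4.98 FPKM 2 days without LIF and 6.98 FPKM in the EB library, against 4.04 and 3.85 FPKM in ES cells, and was the only cluster highest in the EB library. These sums have no test, since each derived group is 1 library.

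By position, the 8 anterior genes (paralogue groups 1 to 3) summed to 2.02 FPKM 2 days without LIF and 1.29 FPKM in the EB library, against 1.80 and 1.55 FPKM in ES cells. The 15 central genes (groups 4 to 8) summed to 11.3 FPKM 2 days without LIF and 4.18 FPKM in the EB library, against 6.99 and 6.87 FPKM in ES cells. The 16 posterior genes (groups 9 to 13) summed to 12.1 FPKM 2 days without LIF and 10.5 FPKM in the EB library, against 6.68 and 7.33 FPKM in ES cells. The anterior and the central sum were thus each lowest in the EB library, while the posterior sum there lay above both ES libraries. The higher posterior sum there came from Hoxa: the 4 posterior Hoxa genes summed to 5.68 FPKM in the EB library, against 1.70 and 1.85 FPKM in ES cells. The other 12 posterior genes summed to 4.84 FPKM in the EB library, below both ES libraries (4.985 and 5.48 FPKM), and to 8.54 FPKM 2 days without LIF.

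**Figure D2:**
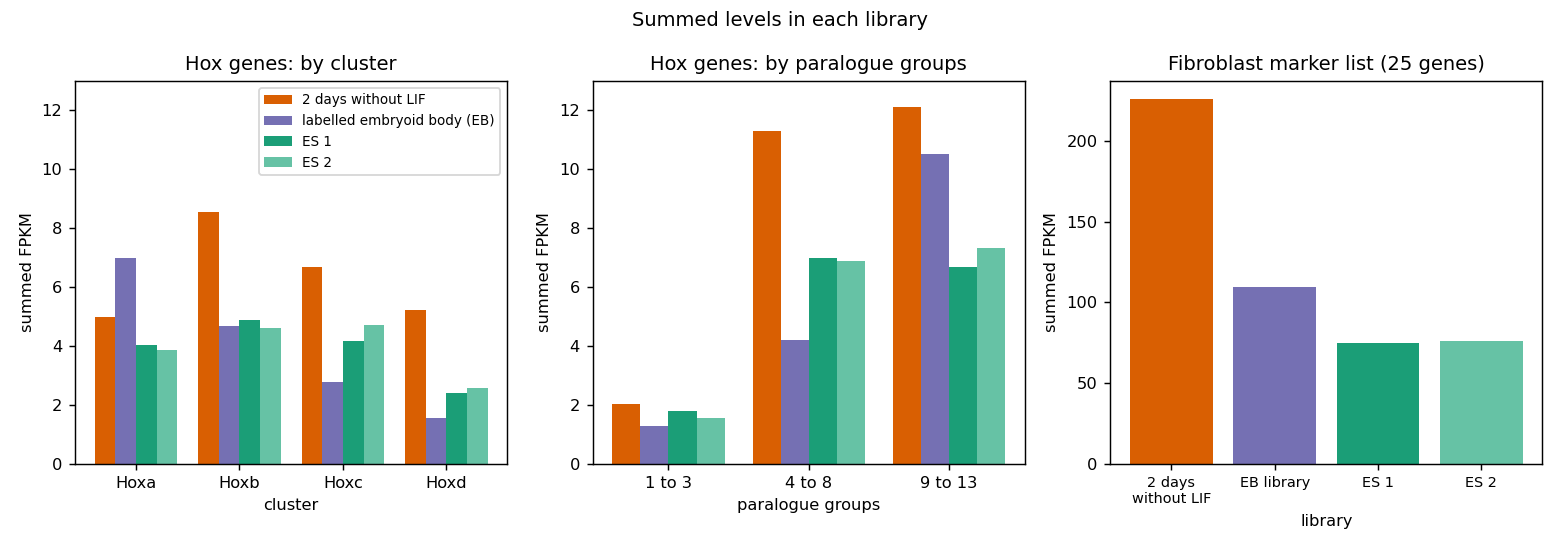
Summed FPKM in each library of the Hox genes by cluster (left), of the Hox genes by paralogue groups 1 to 3, 4 to 8 and 9 to 13 (middle) and of a list of 25 fibroblast marker genes (right); each bar is 1 library and has no error. Hoxb, Hoxc and Hoxd and the fibroblast list were highest 2 days without LIF, and Hoxa was highest in the EB library.

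Fibroblast markers also differed between the libraries. The 25 genes of the list summed to 226 FPKM 2 days without LIF and 110 FPKM in the EB library, against 75.0 and 75.9 FPKM in ES cells. Fap and Tcf21 had a listed value of 0 in each ES library and Lum in ES 2, and none was at 0 in the derived libraries. Of 22 members tested with limma over all genes, 4 rose 2 days without LIF, beside 7.32% of all tested genes called higher. Lower were 0, beside 0.357%. The median log2(FPKM + 1) change was 0.70, beside 0.04 over all tested genes. Postn, a matrix protein of fibroblasts, was at 22.7 FPKM 2 days without LIF and 2.66 FPKM in the EB library, against 2.39 and 2.79 FPKM in ES cells. S100a4, a calcium-binding protein of fibroblasts, was at 73.2 FPKM 2 days without LIF and 8.64 FPKM in the EB library, against 14.1 and 12.6 FPKM in ES cells. The other 2 that rose were Dcn (log2 change 2.19) and Col5a2 (1.76). Prrx1, a homeobox factor of limb and skeletal mesenchyme, was at 21.1 FPKM 2 days without LIF and 6.66 FPKM in the EB library, against 6.65 and 7.66 FPKM in ES cells, and was not called (limma adjusted p = 0.0703).

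In the EB library 0 of the 22 were called against ES cells (12 at an unadjusted p under 0.05), beside 0.396% of all tested genes called higher, 0% lower and 4338 of 15676 at that unadjusted p, with a median change of 0.28 beside -0.01 over all tested genes. Some matrix genes were highest there: Dcn was at 11.1 FPKM in that library and 6.68 FPKM 2 days without LIF, against 0.695 and 0.664 FPKM in ES cells. Col6a3 was at 8.68 FPKM in that library and 0.805 FPKM 2 days without LIF, against 0.396 and 0.675 FPKM in ES cells. The part of feeder fibroblasts in any Hox difference was not tested. In bulk samples fewer cells of a type and less RNA per cell cannot be told apart.

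Calls below come from limma on log2(FPKM + 1) over the 15676 genes that reached 1 FPKM in any library, at a Benjamini-Hochberg adjusted p under 0.05 over all of them and a log2 change of at least 1 in size. The pseudocount of 1 understates the changes of genes at these levels. The filter kept 8 Hox genes: Hoxa10, Hoxa13, Hoxb7, Hoxb9, Hoxc6, Hoxc8, Hoxd8 and Hoxd13. Of these, Hoxb7, Hoxc8 and Hoxd8 passed only through the library 2 days without LIF and Hoxa13 only through the EB library. Hoxa10 passed through both of these and neither ES library. These members had to be high there, so the counts over the 8 are a description. The other 31 were below 1 FPKM in every library. The size rule used beside it, which has no test, asks for 1 FPKM on the higher side and a 2-fold distance to each ES library, in 1 direction. Between the derived libraries it asks for a 2-fold distance of the 2 values. Its counts and shares are out of the genes that could pass it, with 1 FPKM or more on either side (for ES cells, in both libraries).

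After 2 days without LIF, Hoxd8 rose and was the only call among the 8 tested Hox genes. The count was 1 of 8 higher, beside 7.32% of all tested genes called higher, and 0 of 8 lower, beside 0.357% called lower, while 5 of the 8 were at an unadjusted p under 0.05, as were 5837 of all 15676. Of the 1203 genes called in this comparison, 680 had a listed value of 0 in each ES library and so no measured spread. By the size rule 3 of the 7 that could pass it (Hoxb9, Hoxc8 and Hoxd8) were at least 2-fold higher, beside 13.2% of all genes that could. Lower were 0, beside 1.89%. Hoxc8 and Hoxd8 were among the 7 only through their level 2 days without LIF, so the count of 3 was favoured by the rule. Of the 38 members above 0 in a library of this comparison, 23 lay above both ES libraries, beside 49.7% of all such genes, and 8 lay below both, beside 32.5%. The median difference over all 39 was 0.14 on the log2(FPKM + 1) scale, beside 0.04 over all tested genes. On simulated libraries with noise drawn from the ES pair, the same fit also called some unchanged genes. False calls are thus possible here, and for Hoxc8 and Hoxd8 between the derived libraries. That noise was drawn separately for each library from genes of like level, so the risk for Hoxc8 or Hoxd8 itself was not measured. A call for 1 of 8 members is near the share over all genes and is no result about Hox genes as a group.

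Hoxd8, a central gene of the Hoxd cluster at chr2:74704615-74707933, was at 2.12 FPKM 2 days without LIF (95% counting interval 1.73 to 2.56 FPKM, about 105 fragments) and 0.230 FPKM in the EB library, against 0.209 and 0.274 FPKM in ES cells, where the estimate was 18.0 and 19.9 fragments. Only the library 2 days without LIF was high, at 10.1 times ES 1 and 7.71 times ES 2, and its interval did not overlap those of the other libraries. The log2(FPKM + 1) change was 1.33 (SE 0.05, limma adjusted p = 0.0343), and the EB library differed from ES cells by -0.01 (limma adjusted p = 0.916). None of its 50-base stretches occurred in another gene model. It lies inside the body of the opposite-strand gene Hoxd3os1 with no exon shared, and Hoxd3os1 was at 0.235 FPKM 2 days without LIF and listed at 0 in the other 3 libraries. Whether the library kit kept strand is not stated, and the part of antisense reads in the Hoxd8 value was not tested.

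Hoxb9, a posterior gene known for patterning of the ribs, was the highest Hox gene of that library. It was at 4.47 FPKM 2 days without LIF (interval 3.88 to 5.12 FPKM) and 2.33 FPKM in the EB library, against 1.91 and 2.13 FPKM in ES cells. Its level 2 days without LIF was at least 2.10 times each ES library, and the change of 0.86 (SE 0.08) was not called (limma adjusted p = 0.0759). Hoxb7, a central gene of the same cluster, was at 1.43 FPKM 2 days without LIF and 0.491 FPKM in the EB library, against 0.717 and 0.388 FPKM in ES cells. The library 2 days without LIF was high and the ES libraries lay apart from each other, and the change of 0.65 (SE 0.20) was not called (limma adjusted p = 0.194).

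Hoxc8, a central gene that patterns the lower thorax and the motor neurons of the forelimb, was at 1.37 FPKM 2 days without LIF and 0.158 FPKM in the EB library (about 11.8 fragments), against 0.582 and 0.660 FPKM in ES cells. The ES libraries lay between the derived libraries, and neither change from ES cells was called: it was 0.55 (SE 0.05, limma adjusted p = 0.0706) 2 days without LIF and -0.48 (SE 0.05, limma adjusted p = 0.139) in the EB library. Hoxc6, a central gene of the thoracic region, was at 2.79 FPKM 2 days without LIF and 0.946 FPKM in the EB library, against 1.86 and 2.14 FPKM in ES cells. Hoxc5, the next gene, was under 1 FPKM throughout, at 0.763 FPKM 2 days without LIF and 0.0968 FPKM in the EB library, against 0.504 and 0.654 FPKM in ES cells. Of the 4 central Hoxc genes, 3 (Hoxc5, Hoxc6 and Hoxc8) were thus each above both ES libraries 2 days without LIF and below both in the EB library. The other, Hoxc4, was at 0.311 FPKM 2 days without LIF and 0.239 FPKM in the EB library, between the ES libraries (0.336 and 0.175 FPKM) in each. Of these 3, Hoxc5 shares 3.9% of its 50-base stretches with Hoxc10. The share of all genes with the pattern of these 3 was not computed.

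**Figure D3:**
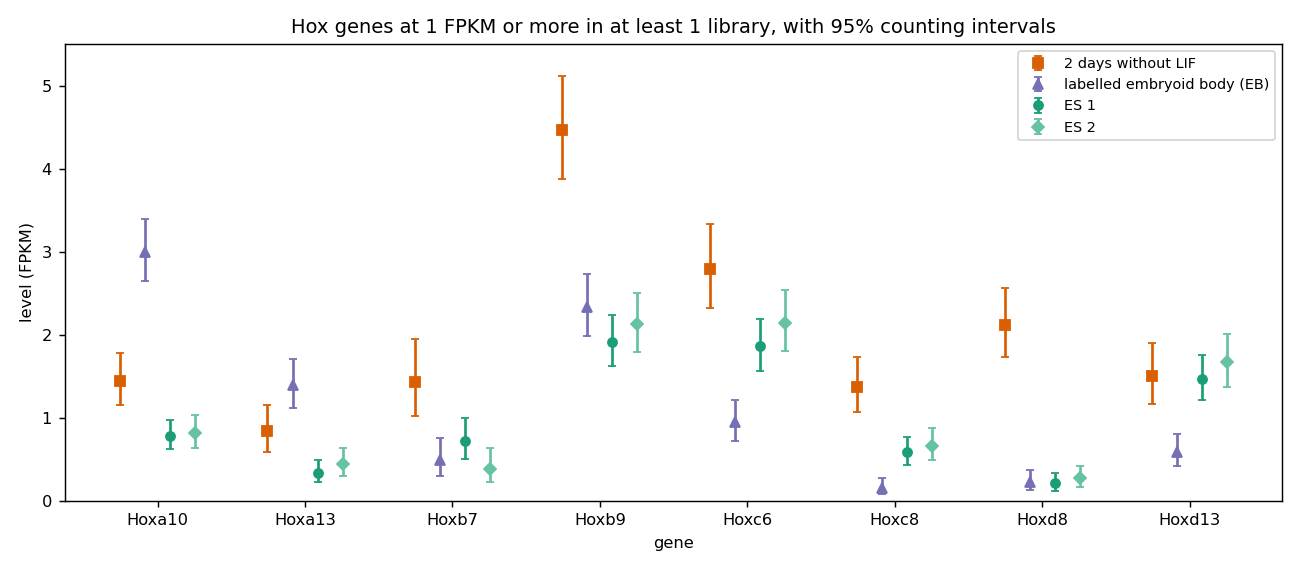
Level in FPKM of the 8 Hox genes that reached 1 FPKM in any library; bars are 95% Poisson intervals of the estimated fragments of each library and do not hold replicate error. Hoxd8 stands apart 2 days without LIF (2.12 FPKM) and Hoxa10 in the EB library (3.0 FPKM).

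In the EB library, 0 of 8 Hox genes were called higher against ES cells, beside 0.396% of all tested genes, and 0 of 8 lower, beside 0%. At an unadjusted p under 0.05 were 5 of the 8 (Hoxa10, Hoxa13, Hoxc6, Hoxc8 and Hoxd13) and 4338 of all genes. Of the 62 genes called in this comparison, 60 had a listed value of 0 in each ES library, so the test hardly called any gene with a measured spread. By the size rule 2 of the 5 that could pass it were at least 2-fold higher (Hoxa10 and Hoxa13), beside 4.08% of all genes that could. Lower was 1 of 5 (Hoxd13), beside 2.3%. Hoxa10 and Hoxa13 were among the 5 only through their level in the EB library, so the count of 2 was favoured by the rule. Above both ES libraries lay 13 of the 38 members above 0 in a library of this comparison, beside 42.6% of all such genes. Below both lay 13, beside 37.7%. The median difference over all 39 was -0.02, beside -0.01 over all tested genes.

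The 2 members at least 2-fold higher by the size rule, Hoxa10 and Hoxa13, lie in the 5' part of the Hoxa cluster. Hoxa10, which patterns the lumbar spine and the uterus, was at 3.0 FPKM in the EB library (interval 2.65 to 3.39 FPKM) and 1.44 FPKM 2 days without LIF, against 0.783 and 0.816 FPKM in ES cells. Its level was highest in the EB library, at 3.83 and 3.68 times the ES libraries, which differed little from each other. The change was 1.15 (SE 0.03, limma adjusted p = 0.130 over all genes), and Hoxa10 was called higher, with an adjusted p of 0.0263, when limma was run on the 6808 genes of at least 1000 nt that lie outside every opposite-strand gene. Hoxa13, which shapes the digits and the genital tubercle, was at 1.39 FPKM in the EB library and 0.840 FPKM 2 days without LIF, against 0.340 and 0.439 FPKM in ES cells. Both derived libraries lay above both ES libraries, and the change of 0.78 (SE 0.07) in the EB library was not called (limma adjusted p = 0.139).

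Hoxa11, between Hoxa10 and Hoxa13 and known for limb and uterine patterning, was below 1 FPKM and was not tested. It was at 0.918 FPKM in the EB library and 0.859 FPKM 2 days without LIF, against 0.272 and 0.353 FPKM in ES cells. Its antisense gene Hoxa11os covers 35% of its exon bases and was at 1.54 FPKM in the EB library and 0.814 FPKM 2 days without LIF, against 0.191 and 0.104 FPKM in ES cells. Both were higher in the derived libraries, and reads of these overlapping genes cannot be told apart if strand was not kept. Hoxa9 was at 0.368 FPKM in the EB library and 0.458 FPKM 2 days without LIF, against 0.302 and 0.238 FPKM in ES cells. All 4 posterior Hoxa genes were thus above both ES libraries in both derived libraries. The share of all genes that were so was not computed. It was 42.6% in the EB library alone and 49.7% 2 days without LIF alone. The interval of Hoxa9 in the EB library (0.277 to 0.480 FPKM) overlapped that in ES 1 (0.226 to 0.395 FPKM). The sum of the 4 genes was 5.68 FPKM in the EB library and 3.60 FPKM 2 days without LIF, against 1.70 and 1.85 FPKM in ES cells.

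The other Hoxa genes went both ways. Hoxa7, a central gene, was at 0.601 FPKM in the EB library and 0.497 FPKM 2 days without LIF, against 0.761 and 0.779 FPKM in ES cells. It was below both ES libraries in each derived library, as were Hoxa3 and Hoxa6, which stayed at or under 0.209 FPKM in all 4 libraries. Hoxa4 was at 0.0766 FPKM in the EB library and listed at 0 in the library 2 days without LIF, against 0.0645 and 0.0506 FPKM in ES cells. Hoxa2 was at 0.0226 FPKM in the EB library and 0.0675 FPKM 2 days without LIF, against a listed 0 in each ES library. Both were above the ES libraries in the EB library, at levels near or under the floor. Opposite-strand exons cover 20.4% of the exon bases of Hoxa7 and 25.4% of those of Hoxa3.

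Hoxd13, which shapes the digits and lies at the far end of its cluster, was at 0.591 FPKM in the EB library (interval 0.420 to 0.808 FPKM) and 1.5 FPKM 2 days without LIF, against 1.47 and 1.67 FPKM in ES cells. It was low only in the EB library, at 0.40 and 0.35 times the ES libraries. The change of -0.69 (SE 0.08) was not called (limma adjusted p = 0.143), and that 2 days without LIF was -0.04 (SE 0.08, limma adjusted p = 0.759). The group 13 paralogues thus differed: Hoxa13 was higher and Hoxd13 lower than both ES libraries in the same library, while Hoxc13 was at 0.502 FPKM in the EB library and 0.559 FPKM 2 days without LIF, against 0.343 and 0.187 FPKM in ES cells. Hoxb13 was at 0.0708 FPKM in the EB library and 0.0526 FPKM 2 days without LIF, against 0.283 and 0.211 FPKM in ES cells.

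**Figure D4:**
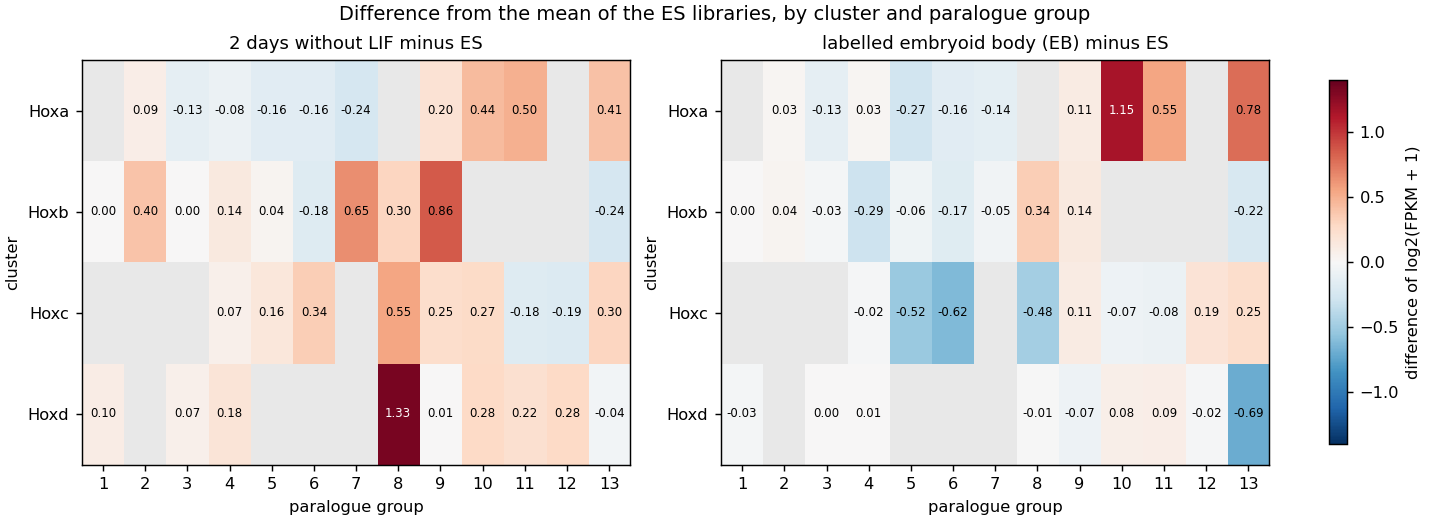
Difference of log2(FPKM + 1) from the mean of the ES libraries for 38 of the 39 Hox genes, by cluster and paralogue group, 2 days without LIF (left) and in the EB library (right); grey cells hold no gene or one not shown. The largest differences are 1.33 for Hoxd8 on the left and 1.15 for Hoxa10 on the right; central Hoxc genes are positive on the left and, from Hoxc5 to Hoxc8, negative on the right.

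Set directly against each other, the derived libraries differed at Hoxc8 and Hoxd8, each from 1 library. Of the 8 members limma called 0 higher in the EB library, beside 0.785% of all tested genes, and 2 lower, beside 7.1%. Among the 1236 genes called between these libraries, 716 had a listed value of 0 in each ES library. For Hoxd8 the log2 change was -1.34 (SE 0.06, limma adjusted p = 0.0396), at 0.230 FPKM in the EB library and 2.12 FPKM 2 days without LIF. For Hoxc8 it was -1.03 (SE 0.05, limma adjusted p = 0.0483), at 0.158 FPKM in the EB library and 1.37 FPKM 2 days without LIF. Hoxa10 was higher by 0.71 (SE 0.04, limma adjusted p = 0.0480), which is under the size asked of a call. At an unadjusted p under 0.05 were 6 of the 8 members and 5761 of all genes.

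By the size rule, 1 of 8 members (Hoxa10) was at least 2-fold higher in the EB library than 2 days without LIF, beside 7.83% of all genes that could pass it. Lower were 5 (Hoxb7, Hoxc6, Hoxc8, Hoxd8 and Hoxd13), beside 14.4%. As 3 of these 5 entered the test only through the library 2 days without LIF, the count of 5 was favoured by the filter. Over all 39 members 10 were higher and 27 lower, and 2 were at 0 in both. All 9 Hoxd genes and 7 of 9 Hoxc genes were lower in the EB library, against 6 of 10 Hoxb and 5 of 11 Hoxa genes. These counts take a difference of any size, and the share of all genes lower in the EB library was not computed. Some Hoxd values rest on few fragments (Hoxd3 on about 3.8 fragments 2 days without LIF), so the counts are a description. The median difference over all 39 members was -0.09, beside -0.08 over all tested genes. In the same comparison 3 of 22 fibroblast markers (S100a4, Col5a2 and Postn) fell, beside 7.1% of all tested genes called lower. Higher were 0, beside 0.785%, and the median was -0.31.

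Most other members were too low to be told apart. Among the Hoxb genes, Hoxb2, known for the hindbrain, was at 0.720 FPKM 2 days without LIF and 0.343 FPKM in the EB library, against 0.361 and 0.256 FPKM in ES cells. Opposite-strand exons of Hoxb3os cover 27.3% of its exon bases, and Hoxb3os was at 0.799 FPKM 2 days without LIF and listed at 0 in the other libraries. Hoxb8 was at 0.521 FPKM 2 days without LIF and 0.568 FPKM in the EB library, against 0.258 and 0.217 FPKM in ES cells, above both ES libraries in each. Hoxd3 and Hoxd4 share 62.3% and 52.3% of their exon bases with other genes of the same strand, so their values are uncertain. In ES cells alone, 9 of the 37 members above 0 differed at least 2-fold between the 2 libraries.

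Overlaps limit which members can be read without doubt. Exons on the opposite strand cover part of 10 members, 14 lie in or across an opposite-strand gene, and 25 do not. Of the 8 tested members, 7 are among those 25 and Hoxd8 is not. At most 3 of the 50-base stretches of any member occurred in a Hox gene of another cluster, so few reads of that length would fit 2 paralogues.

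Other genes inside the clusters were mostly under 1 FPKM. Gm53, a long intergenic non-coding gene of the Hoxb cluster that is not in the list below, was at 1 FPKM or more in every library, at 5.0 FPKM 2 days without LIF and 3.81 FPKM in the EB library, against 2.52 and 2.67 FPKM in ES cells. Both derived libraries lay above both ES libraries, and neither change was called: 0.74 (SE 0.07, limma adjusted p = 0.0719) 2 days without LIF and 0.42 (SE 0.07, limma adjusted p = 0.156) in the EB library. Of 12 matched long non-coding genes of a list for the clusters, 2 were tested and 0 were called in any of the 3 comparisons. Halr1, a non-coding gene next to the Hoxa cluster, was at 6.27 FPKM 2 days without LIF and 4.84 FPKM in the EB library, against 11.8 and 13.7 FPKM in ES cells. Both derived libraries were below both ES libraries, with changes of -0.91 (limma adjusted p = 0.105) 2 days without LIF and -1.23 (limma adjusted p = 0.142) in the EB library. The 6 microRNA genes of the clusters, Mir10a, Mir10b, Mir196a-1, Mir196a-2, Mir196b and Mir615, were listed at 0 in all 4 libraries. Of 20 tested genes flanking the clusters, 0 were called in any comparison, with median changes of 0.02 2 days without LIF and 0.09 in the EB library. Over all tested genes, 7.32% were called higher and 0.357% lower 2 days without LIF, and 0.396% and 0% in the EB library. Between the derived libraries the shares were 0.785% higher and 7.1% lower.

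Genes of the pathways around Hox were read from lists drawn up for each pathway, which need not be complete. Their counts stand beside the shares over all tested genes given above. In the EB library those were 0.396% higher and 0% lower, so 0 calls against ES cells there says little of any list. Of 9 genes for the TALE cofactors (PBX, MEIS and PKNOX proteins, which bind DNA with HOX proteins) 0 were called in any comparison, and the most abundant was Pbx2, at 12.4 FPKM 2 days without LIF and 17.9 FPKM in the EB library, against 14.4 and 14.5 FPKM in ES cells. Of 32 tested Polycomb genes, which hold Hox clusters silent, 0 were called in any comparison. The same was so for 11 tested genes of a list for Trithorax, a group that keeps Hox clusters active. That list also holds Ctcf, which is not a Trithorax gene. The Polycomb median change was 0.05 2 days without LIF and -0.08 in the EB library, beside 0.04 and -0.01 over all tested genes. Suz12, a core subunit of Polycomb complex PRC2, was at 189 FPKM 2 days without LIF and 152 FPKM in the EB library, against 133 and 126 FPKM in ES cells. Its change 2 days without LIF (0.54) was the highest of the 32 Polycomb genes. Eed and Ezh2, of the same complex, changed by -0.20 and -0.05 there.

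Of the genes upstream of posterior Hox genes, 12 matched and 5 were tested, with 0 called, beside the shares over all tested genes given above. Gdf11, a ligand that promotes posterior Hox expression in the trunk-to-tail transition, was at 2.08 FPKM 2 days without LIF and 0.724 FPKM in the EB library, against 0.656 and 0.693 FPKM in ES cells. It was high only 2 days without LIF, with a change of 0.88 (limma adjusted p = 0.0275) that is under the size asked of a call. Cdx2, a homeobox activator of central and posterior Hox genes, was at 0.205 FPKM 2 days without LIF and 0.0344 FPKM in the EB library, against 1.01 and 0.786 FPKM in ES cells, lower in both derived libraries. Of 19 retinoic acid genes 11 were tested. Of these, 1 fell 2 days without LIF, beside 0.357% of all tested genes, and 0 rose, beside 7.32%. In the EB library 0 were called against ES cells, beside 0.396% of all tested genes higher and 0% lower. The gene that fell was Aldh1a1, a retinaldehyde dehydrogenase, at 0.143 FPKM 2 days without LIF and 0.0575 FPKM in the EB library, against 1.29 and 1.43 FPKM in ES cells. Its change 2 days without LIF was -1.05 (limma adjusted p = 0.0482). Rarg, a retinoic acid receptor, was lower in the EB library than 2 days without LIF (20.7 and 45.0 FPKM, log2 change -1.09, limma adjusted p = 0.0478).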

How the data were processed

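RNA sequencing of total RNA gave 1 library each of cells 2 days without LIF and of cells labelled embryoid body (EB library), and 2 ES libraries. The FPKM values were computed and deposited by the authors, 1 per gene and library. The build mm10 and the tools Cufflinks, STAR and Trimmomatic 0.36 were used, per the submitters' processing notes. Not given in the sources used here are how each was run, the annotation and the use of strand. Each value is scaled to the library total, so a few abundant transcripts lower the other values. All 4 sample columns were used as deposited.

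Positions and overlaps came from GENCODE release M21, to which 47219 of 47633 identifiers matched (82.8% with the same version), and promoters from RefSeq. That release need not be the one behind the FPKM. Depth came from genes with 1 transcript of 3000 nt or more, where the low value of FPKM times length seen most often was read as 1 fragment, and fragments per gene were estimated from it without a correction for effective length. Genes that reached 1 FPKM in any library were tested as log2(FPKM + 1) in limma 3.58.1 (R 4.3.3), moderated with a trend on mean expression, with all libraries in 1 model with 1 residual degree of freedom. On simulated libraries with even noise the fit returned the changes put in, and with noise drawn from the ES pair it also called unchanged genes. The changes were put only into genes above the Hox levels and were larger than those of the called Hox genes. Recovery at Hox levels was thus not tested. Other steps used Python 3.11.15, pandas 2.3.3, numpy 2.4.6, matplotlib 3.10.9 and scipy 1.17.1.

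The members and lists were chosen with earlier results of these data known, including the rise of Hoxd8 2 days without LIF, which is no independent support. Named were members at 1 FPKM or more or called, and from each list the called genes, up to 4. Where a list had no call the rule asked for its 2 most abundant genes, which were not all named. Genes named beyond this rule (Hoxa2, Hoxa3, Hoxa4, Hoxa6, Hoxa7, Hoxa9, Hoxa11, Hoxb1, Hoxb2, Hoxb8, Hoxc4, Hoxc5, Hoxd3, Hoxd4, Hoxb13, Hoxc13, Fap, Tcf21, Lum, Prrx1, Col6a3, Halr1, Gm53, Hoxa11os, Hoxb3os, Hoxd3os1, Suz12, Eed, Ezh2, Cdx2, Gdf11, Pou5f1, Klf2, T, Tubb3, Sox7, Kdr, Evx1 and Pknox2) were chosen after their values were seen. The values of 1 member are not reported here. Other pseudocounts, filters, scalings, size rules, floors and gene sets, no variance trend, fits of only the groups compared and leaving out each ES library were tried.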

Additional observations from a re-analysis of the deposited data

Results flagged for a closer look

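Hoxc8 and Hoxd8 were called in the fit of the difference between the derived libraries. Both had passed the 1 FPKM filter only through the library 2 days without LIF, where they were high, so the calls are a description. The error in the fit came from the ES pair, and both calls were lost at a pseudocount of 0.1. For Hoxc8 the log2(FPKM + 1) difference of the EB library from the library 2 days without LIF was -1.03 (limma adjusted p = 0.0483), and Hoxc8 was below both ES libraries in the EB library and above both 2 days without LIF. For Hoxd8 it was -1.34 (limma adjusted p = 0.0396), with the EB library within the range of the ES libraries. Each side of the difference is 1 library. The fibroblast marker sum was 110 FPKM in the EB library and 226 FPKM 2 days without LIF, against 75.0 and 75.9 FPKM in ES cells. Members of that list went both ways. S100a4, Col5a2 and Postn were called lower in the EB library than 2 days without LIF, while others, such as Dcn and Col6a3, were higher. The part of fibroblasts in the differences of Hoxc8 and Hoxd8 was not tested.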

How the results depend on the processing

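Calls of Hox genes depended on the setting. Calls 2 days without LIF (1, Hoxd8) became 0 at a pseudocount of 0.1 and 0 in the strand-clear set, which does not hold Hoxd8. In the EB library the 0 calls became 1 (Hoxa10) in the strand-clear set. Between the derived libraries the 2 calls became 0 at a pseudocount of 0.1, 1 at 0.5 (Hoxc8), 1 without a variance trend (Hoxd8) and 1 in the strand-clear set (Hoxc8). The cause was not tested, except that the strand-clear set holds 6808 genes. Calls over all genes in the EB library were 62, but 0 without a variance trend or with only the groups compared, 131 at a pseudocount of 0.1, 138 without a filter and 157 in the strand-clear set. There they were 207 against 1203 2 days without LIF, and 302 against 1236 between the derived libraries. By size, the 3 genes 2 days without LIF became 5 at 1.5-fold, 1 at 3-fold and 5 at 0.5 FPKM. The 3 genes in the EB library became 7 at 0.5 FPKM, and the 6 between the derived libraries 2 at 3-fold and 10 at 0.5 FPKM. Without either ES library the counts against ES cells were 3 to 4 in each derived library.

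Leaving out either ES library left no residual degree of freedom, so those are values with no test. They turned the sign of small changes: Hoxd13 2 days without LIF had values of -0.09 and 0.02, and in the EB library Hoxb7 had -0.20 and 0.10 and Hoxd8 had -0.05 and 0.03. Median-of-ratios scaling kept all 24 member changes on their side of the threshold. At a pseudocount of 0.1 the calls lost had changes of 2.70 for Hoxd8 2 days without LIF, and -2.51 for Hoxc8 and -2.75 for Hoxd8 between the derived libraries (limma adjusted p = 0.0684, 0.0522 and 0.0746). A fit of only the derived libraries was not run, as it has no residual degree of freedom. No paired analysis was possible because only replicate number 1 is shared and each derived group is 1 library. Depth limits the low members: in ES cells the Hoxd8 level rested on about 18.0 and 19.9 fragments.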

Other observations

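Among marker lists of the germ layers, Eomes, a T-box factor of early mesoderm and endoderm, was called 2 days without LIF, at 3.72 FPKM 2 days without LIF and 1.26 FPKM in the EB library, against 1.31 and 1.32 FPKM in ES cells (log2 change 1.03, limma adjusted p = 0.0285). It was 1 of 4 tested mesoderm markers, beside 7.32% of all tested genes called higher 2 days without LIF and 0.357% lower. In the EB library those shares were 0.396% and 0%. Of 3 tested neural and 2 tested endoderm markers 0 were called against ES cells in either derived library. Nes, an intermediate filament of neural progenitors, was at 2.11 FPKM in the EB library and 6.49 FPKM 2 days without LIF, against 7.11 and 6.92 FPKM in ES cells. It was low only in the EB library, and the difference between the derived libraries was called (log2 change -1.27, limma adjusted p = 0.0484).

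Evx1, the homeobox gene beyond Hoxa13, was at 0.890 FPKM in the EB library and 0.549 FPKM 2 days without LIF, against 0.412 and 0.250 FPKM in ES cells. It lay above both ES libraries in each derived library, as did the posterior Hoxa genes next to it. Pknox2, the TALE cofactor with the largest change 2 days without LIF, was at 1.49 FPKM 2 days without LIF and 0.184 FPKM in the EB library, against 0.308 and 0.395 FPKM in ES cells, and was not called (log2 change 0.88, limma adjusted p = 0.0617). These genes were chosen after their values were seen.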
